A study of Mus musculus with 163 samples.

Results

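The splicing factor families considered here are the genes whose mouse symbol starts with Srsf, Sf3a, Sf3b, Hnrnp, Prpf, U2af or Snrp. Snrpn and names with -ps were left out. The rule is one of names and used no measured value. It found 57 of the 21950 genes in the count table, namely 18 hnRNP genes, 11 Prpf genes, 10 Srsf genes, 8 SF3 genes (Sf3a2, Sf3a3 and Sf3b1 to Sf3b6), 8 Snrp genes and 2 U2af genes. Hnrnph2, Hnrnpul2, Prpf6, Sf3a1, Snrpa, Snrpd2, Snrpd3, Srsf2 and U2af1l4 are among the genes of these names not analysed here. Of the 57 genes, 56 passed the filter on low values in every comparison, and Srsf12 did not, with at most 0.262 pooled counts per 1000000 reads (CPM) in any group.

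Introns are removed from pre-mRNA by the spliceosome, which is built from small nuclear ribonucleoproteins (snRNPs). The Snrp genes code for proteins of these particles, among them the Sm proteins that form a ring around the small nuclear RNAs. U2AF binds the end of the intron, and the SF3A and SF3B complexes belong to the U2 snRNP that recognises the branch point. Prpf proteins act in the assembly and the catalytic steps of the spliceosome. SR proteins, the products of Srsf genes, bind mostly exonic sequences and favour their inclusion, whereas heterogeneous nuclear ribonucleoproteins (hnRNPs) coat nascent RNA and often act against exon inclusion. A growing oocyte transcribes its genome and stores RNA, and transcription ceases when the oocyte is fully grown.

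Single mouse oocytes had been profiled by Smart-seq2, which amplifies polyadenylated RNA of 1 cell, either as growing oocytes (GROs) or as fully grown oocytes (FGOs). GROs were derived from BVSC-iPSCs (23 oocytes), from E12.5 gonads (24 oocytes) or taken in vivo (24 oocytes). FGOs were derived from BVSC-iPSCs, E12.5 gonads or 6 dpp follicles (24 oocytes each), or taken in vivo (20 oocytes). BVSC-iPSC is 1 line of induced pluripotent stem cells with Blimp1-Venus and Stella-ECFP reporters. In culture, its germ cells and those of the gonads developed inside reconstituted ovaries, which for the iPSCs held somatic cells of E12.5 Swiss Webster gonads, so that single oocytes could stem from germ cells left in those gonads. For the gonad-derived oocytes the methods do not state the strain separately. The age of the mice that gave in vivo oocytes for sequencing is not given in the sources used here.

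Sequencing depth was 2.17 to 13.7 M counted reads per oocyte (M is 1000000 reads; median 6.93 M). All 12 oocyte markers of a fixed list exceeded 1 CPM in all 7 groups. Of 14 granulosa cell markers, 12 were in the table, 5 to 10 of them exceeded 1 CPM per group, none was at 0 in a group, and most of the pooled sum was Serpine2. The granulosa sum was 227 to 421 CPM in culture-derived GROs, 156 to 273 CPM in in vivo GROs, 268 to 506 CPM in FGOs from iPSCs and gonads, 261 to 2060 CPM in 6 dpp FGOs and 275 to 606 CPM in in vivo FGOs. Their part in the results was not tested. The labels name no animal or culture behind an oocyte, so each group counted as 1 sample, no comparison had a replicate check, and differences are given without a test. CPM are shares of a library, so fewer transcripts of a gene and more RNA of other genes cannot be told apart.

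The 24 in vivo GROs did not form 1 set. Along the first principal component of 13366 other genes (24.6% of variance), GROs numbered 1 to 16 lay between -0.20 and -0.04 and those numbered 17 to 24 between 0.09 and 0.40. This split was noticed after the values had been seen, and the labels say nothing of what the numbers stand for. Of 56 splicing factor genes, 9 were more than 1.5-fold higher in numbers 17 to 24 than in numbers 1 to 16 and 1 was lower, where 13.3% of all genes were higher and 5.95% lower. Splitting the other GROs at the same number gave 1 higher gene for iPSC-derived GROs, where 0.864% of all genes were higher and 1.88% lower, and 0 for gonad-derived GROs, where 0.946% were higher and 2.21% lower. Depth was alike in both sets (5.55 to 7.54 M and 5.84 to 7.53 M reads), and the granulosa sum was 233 to 273 CPM in numbers 1 to 16 and 156 to 262 CPM in numbers 17 to 24.

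The splicing factor genes past 1.5-fold between both sets were Hnrnpl (log2 ratio 1.70), Hnrnpa0 (1.51), Hnrnpll (1.40), Hnrnpd (1.30), Srsf9 (1.24), Hnrnpu (1.11), Hnrnpa3 (1.07), Sf3b1 (1.02) and Srsf1 (0.60), with Prpf31 (-0.74) lower. Hnrnpl ranged from 3.10 to 6.94 CPM in numbers 1 to 16 and from 8.77 to 22.4 CPM in numbers 17 to 24, so that the sets did not overlap. Sf3b1, the largest SF3B subunit, ranged from 54.1 to 77.0 CPM and from 117 to 151 CPM. Most ratios against in vivo GROs, and the counts and medians of those comparisons, are therefore given below with all of them and also with numbers 1 to 16 alone. In vivo FGO 7 was nearest in expression to gonad-derived GROs. Results were also computed without in vivo FGOs 5, 7, 19 and 22, which an earlier reading of these data had set apart, and without the shallow gonad-derived FGOs 5 and 22. Of the gonad-derived FGOs, 8 were nearest in expression to 6 dpp FGOs. Gonad-derived FGO 19 was less like its own group than any other oocyte of the series, with a median correlation of 0.893 to the other gonad-derived FGOs, where the median over that group was 0.976. It had 6.95 M reads and 367 CPM of Hnrnpa2b1, against 135 to 235 CPM in the other 23. It is included below unless stated. Without it, 2 calls changed after growth from gonads, where Prpf4b was lower (log2 ratio -0.60) and Snrpc within 1.5-fold (-0.54). In IVP@FGO only the call of Snrpc changed, to within 1.5-fold (0.54).

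Per length of the counted transcript, splicing factor genes were among the more strongly expressed genes. The median of their mean level over the 7 groups was 19.9 reads per kilobase per 1000000 reads (RPKM), against 4.25 RPKM for the 14228 genes past the filter. Sf3b5, a small SF3B subunit, had the highest level of its family (249 to 288 RPKM), followed by Snrpd1, an Sm ring protein (134 to 180 RPKM), Prpf38a, a factor needed for spliceosome activation (71.1 to 109 RPKM), and Hnrnpa2b1 (71.6 to 107 RPKM), each the highest of its own family. Srsf4 led the SR genes with 19.4 to 31.0 RPKM, although 63.8% of its 75-base windows also occur in transcripts of another gene, so its count is uncertain. Among the 56 genes past the filter, which leaves out Srsf12, the lowest levels of their families were those of Prpf40b (0.356 to 1.09 RPKM), Hnrnpa3 (0.575 to 1.45 RPKM), U2af2 (2.72 to 4.13 RPKM), Srsf1 (5.11 to 8.80 RPKM), Sf3b1 (15.5 to 25.3 RPKM) and Snrpc (22.2 to 40.1 RPKM). These orders rest on 1 randomly chosen transcript per gene and would move with that choice.

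**Figure D1:**
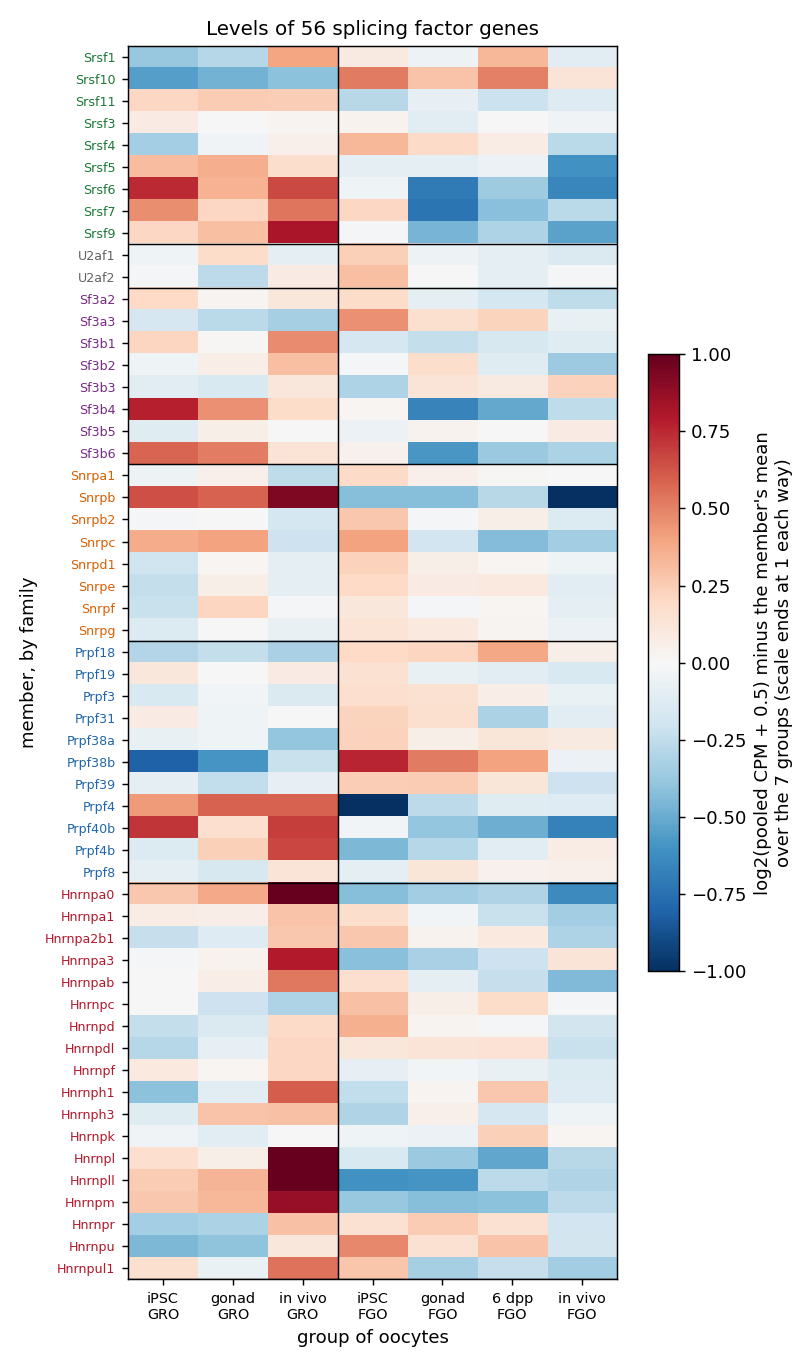
Heat map of the 56 splicing factor genes past the filter (rows, by family) in the 7 oocyte groups (columns). Colour gives the log2 difference of the pooled CPM from the gene's own mean over the groups, so rows compare groups and not genes. In vivo GROs are the highest group for 22 genes, 14 of them hnRNP genes.

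In vivo GROs were the highest of the 7 groups for 22 of the 56 genes (39.3%, against 26.7% of all genes), including 14 of 18 hnRNP genes. With numbers 1 to 16 alone they were the highest group for 17 genes, including 11 hnRNP genes, against 23.1% of all genes. FGOs from iPSCs were the highest group for 19 genes (33.9%, against 13.8% of all genes). The lowest group was most often iPSC-derived GROs (15 genes or 26.8%, against 14.7% of all genes) or in vivo FGOs (14 genes or 25%, against 13.1% of all genes). Between oocytes of a group, the coefficient of variation of genes over 5 CPM had a median of 0.165 to 0.225 for splicing factor genes and 0.194 to 0.249 for all genes. Hnrnpc had the smallest coefficient in 4 groups (0.0419 to 0.0684), and Hnrnpl had the largest in in vivo GROs (0.744), where the oocytes numbered 17 to 24 lie.

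The comparison of in vivo FGOs with in vivo GROs asks how these genes differ across growth in the ovary. In pooled CPM, 0 of the 56 genes were higher and 19 were lower in FGOs past 1.5-fold, a log2 ratio of 0.585 in size. Of all 13148 genes, 18.7% were higher and 26.6% lower. The median log2 ratio was -0.357 for splicing factor genes and -0.106 for all genes, and -0.30 and -0.05 with GROs numbered 1 to 16. The lower genes were 9 of 18 hnRNP genes, 4 of 9 SR genes, 3 of 11 Prpf genes, 2 of 8 SF3 genes and 1 of 8 Snrp genes. Against GROs numbered 1 to 16 alone, 14 genes were lower, 7 of them hnRNP genes, where 19.1% of all genes were higher and 23.6% lower. With all GROs and TMM or DESeq2 scaling, 1 gene was higher and 16 were lower, where 20.3% of all genes were higher and 24.2% lower.

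Snrpb (Entrez 20638, chr2:130171636-130179382 in GRCm38), which codes for the SmB proteins of the Sm ring, differed most. It ranged from 96.9 to 209 CPM (median 130 CPM) in in vivo GROs and from 8.50 to 78.9 CPM (median 36.5 CPM) in in vivo FGOs. The FGO values left a gap, with 8 oocytes at 8.50 to 17.7 CPM, 12 at 32.4 to 78.9 CPM and none between, so the pooled FGO value lies between both sets. All 20 FGOs lay below all GROs, and the log2 ratio of the pooled values, 33.9 CPM (95% interval 33.0 to 34.9) and 134 CPM (132 to 136), was -1.97. It was the one splicing factor gene without overlap in this comparison, where 3.45% of all genes had none. The study selected oocytes by size, and used 15 of the 20 in vivo FGOs and all 24 in vivo GROs. With the oocytes that the study used, 8 splicing factor genes had no overlap, against 14.2% of all genes. Without the oocytes named above as standing apart, 5 had none, against 12.4% of all genes. Against GROs numbered 1 to 16 its log2 ratio was -1.87.

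Hnrnpa0 (Entrez 77134, chr13:58125879-58128556), an hnRNP encoded by a gene with a single exon, had 8.51 to 58.6 CPM (median 18.9 CPM) in GROs and 3.40 to 16.0 CPM (median 7.32 CPM) in FGOs. Its log2 ratio was -1.70 with all GROs, -1.01 with numbers 1 to 16 and -2.52 with numbers 17 to 24. Hnrnpl (Entrez 15388, chr7:28808546-28822268), which binds CA-rich RNA, had 3.10 to 22.4 CPM (median 5.38 CPM) in GROs and 1.82 to 6.24 CPM (median 2.73 CPM) in FGOs. Its log2 ratio was -1.36 with all GROs and -0.55, within 1.5-fold, with numbers 1 to 16. The related Hnrnpll went from -1.47 to -0.84 and the SR gene Srsf9 from -1.35 to -0.82 when only numbers 1 to 16 were used. For these 4 genes the size of the difference thus rested in part on the 8 GROs with the highest numbers.

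Srsf6, Hnrnph1, Prpf40b, Hnrnpm, Srsf7 and Srsf5 had similar ratios with and without that set. Srsf6 (Entrez 67996, chr2:162931508-162937121), an SR protein gene, had 43.7 to 133 CPM (median 78.5 CPM) in GROs and 20.6 to 46.3 CPM (median 30.3 CPM) in FGOs, and 19 of 20 FGOs were below every GRO. Its log2 ratio was -1.31 with all GROs and -1.30 with numbers 1 to 16. Hnrnph1, a G-run binding protein, had 110 to 177 CPM in GROs and 62.5 to 117 CPM in FGOs (log2 ratio -0.74, and -0.80 with numbers 1 to 16). Prpf40b, a low gene, had a log2 ratio of -1.36 and -1.27. Hnrnpm, Srsf7 and Srsf5 had log2 ratios of -1.13, -0.81 and -0.78, and -1.16, -0.84 and -0.82 with numbers 1 to 16. Hnrnpab, Hnrnpul1, Prpf4 and Hnrnpa1 had -0.97, -0.89, -0.72 and -0.64 with all GROs, and -0.78, -0.99, -0.77 and -0.62 with numbers 1 to 16. With a pseudocount of 2 and all GROs, the low hnRNP genes Hnrnpul1, Hnrnpa1 and Hnrnpa3 were within 1.5-fold. The other lower genes were past 1.5-fold with all GROs and within it with numbers 1 to 16. These were Sf3b2 (-0.66 and -0.53), Hnrnpa3 (-0.66 and -0.21), Prpf4b, a kinase of the spliceosome (-0.59 and -0.52), and Sf3b1 (-0.59 and -0.17), which was also within it with TMM scaling (-0.53).

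No splicing factor gene was higher past 1.5-fold in in vivo FGOs with total counts, and 1, Srsf10, was with TMM or DESeq2 scaling (log2 ratio 0.61 with each). The furthest in that direction were Srsf10, an SR protein that represses splicing when dephosphorylated, with a log2 ratio of 0.54 (0.52 with GROs numbered 1 to 16), and Prpf38a, with 0.48 (0.51). Srsf10 (Entrez 14105, chr4:135855752-135869908) had 24.1 to 36.3 CPM in GROs and 33.0 to 64.1 CPM in FGOs, and 18 of 20 FGOs were above every GRO. Its ratio was also past 1.5-fold with the oocytes that the study used (0.62) and without those that stood apart (0.61).

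**Figure D2:**
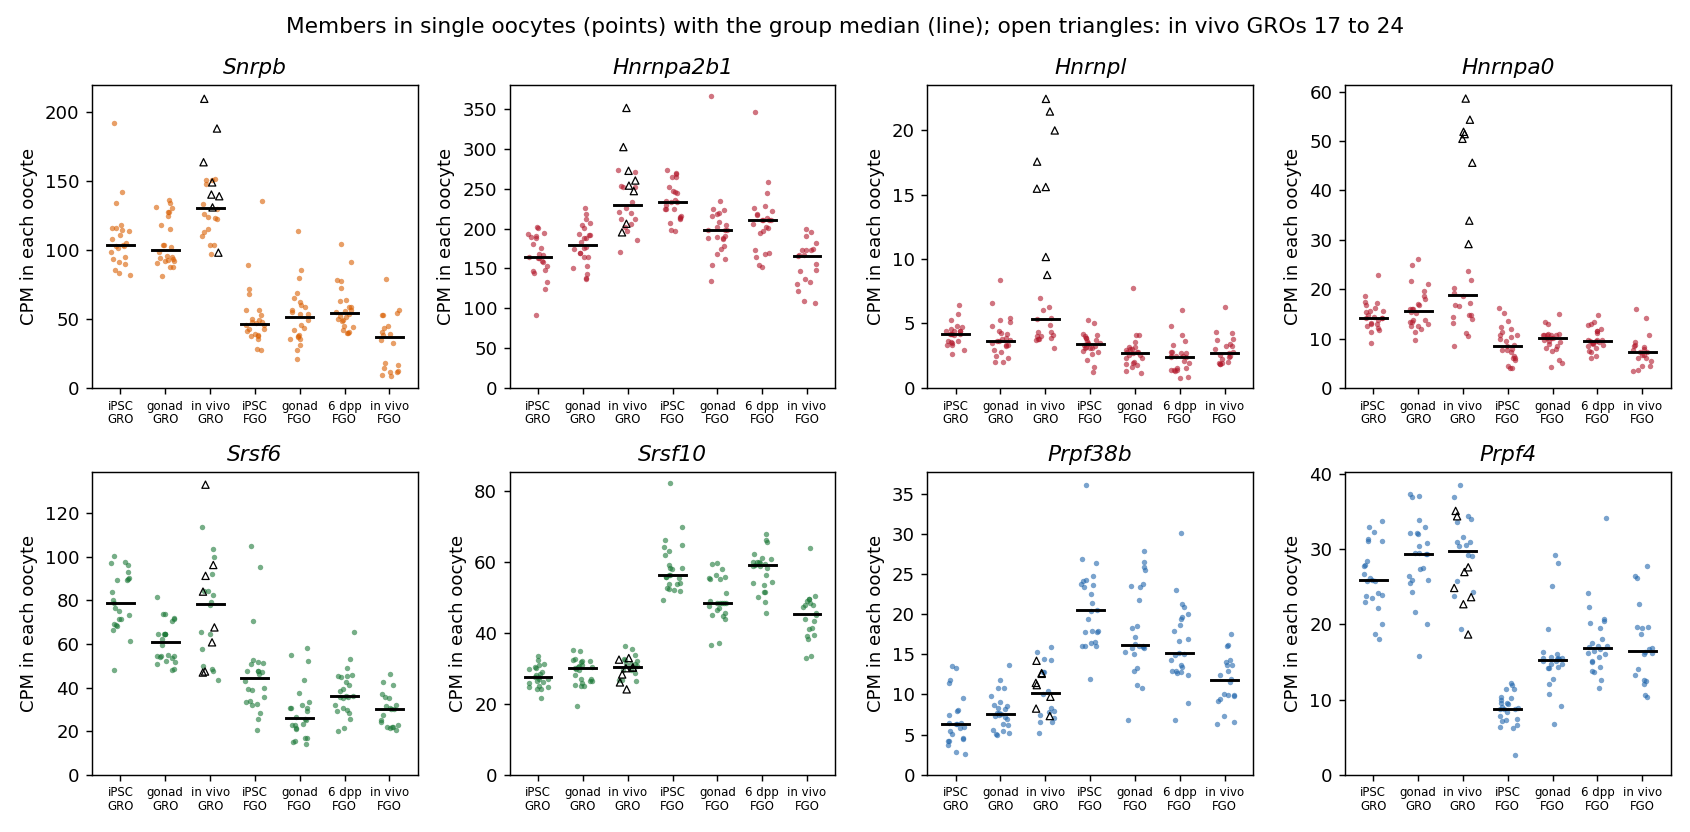
CPM of 8 splicing factor genes in every oocyte (points) of the 7 groups, with the group median (line). Open triangles mark the in vivo GROs numbered 17 to 24, which hold the high values of Hnrnpl and Hnrnpa0, while the values of Snrpb and Srsf10 overlap between both sets of GROs.

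For FGOs against GROs from iPSCs, 6 of 56 genes were higher and 8 lower past 1.5-fold, where 15.2% of all genes were higher and 27.6% lower. The median log2 ratio was 0.08 for splicing factor genes and -0.113 for all genes. For FGOs against GROs from gonads, 2 genes were higher and 11 lower, where 14.7% of all genes were higher and 21.0% lower, with medians of -0.03 and -0.05. With DESeq2 size factors, 4 were higher and 10 lower from gonads, where 15.7% of all genes were higher and 19.8% lower. These comparisons share no oocyte with each other or with growth in vivo.

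Among the genes higher after growth from iPSCs, Prpf38b, a relative of Prpf38a, had the largest ratio. Prpf38b (Entrez 66921, chr3:108902805-108911729) had 2.58 to 13.5 CPM (median 6.29 CPM) in GROs and 11.9 to 36.1 CPM (median 20.5 CPM) in FGOs from iPSCs, a log2 ratio of 1.57, with 23 of 24 FGOs above every GRO. From gonads its log2 ratio was 1.11, and in vivo 0.16 (0.19 with GROs numbered 1 to 16). Its counted transcript spans only 614 bases. Srsf10 had 21.6 to 33.6 CPM in GROs and 49.2 to 82.3 CPM in FGOs from iPSCs, without overlap (log2 ratio 1.07), and from gonads 19.2 to 35.1 CPM and 36.5 to 59.6 CPM, again without overlap (0.76). Thus Srsf10 was higher in FGOs of all 3 sources, past 1.5-fold in culture and, in vivo, on either side of that bound depending on the setting.

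Hnrnpu, a scaffold protein of the nucleus, had 53.8 to 81.3 CPM in iPSC-derived GROs and 102 to 199 CPM in iPSC-derived FGOs, with no overlap and a log2 ratio of 0.93. Sf3a3 (Entrez 75062, chr4:124714861-124732423), an SF3A subunit, had 59.0 to 96.4 CPM and 103 to 141 CPM, also without overlap (0.62). Hnrnpd, also called AUF1, and Srsf4 were the other higher genes, with log2 ratios of 0.59 and 0.67, and the oocytes of both stages overlapped. Hnrnpd was within 1.5-fold with a larger pseudocount (0.56).

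Prpf4 was the furthest lower gene after growth from iPSCs. Prpf4 (Entrez 70052, chr4:62408762-62426990), a protein of the U4/U6 snRNP, had 18.1 to 33.8 CPM (median 25.9 CPM) in GROs and 2.58 to 12.2 CPM (median 8.79 CPM) in FGOs from iPSCs, without overlap (log2 ratio -1.52). From gonads its ratio was -0.85 and in vivo -0.72. The 8 in vivo FGOs low in Snrpb had 10.35 to 16.91 CPM of Prpf4, and the other 12 had 16.08 to 27.72 CPM. Sf3b4, an SF3B subunit, had no overlap in either culture source, with log2 ratios of -0.76 from iPSCs and -1.13 from gonads, but 43.8% of its windows occur in other genes. Snrpb was lower from iPSCs (-1.07) and from gonads (-1.02), with 22 of 24 FGOs below every GRO in each case. Srsf6 was lower too (-0.79 and -1.06), as were Hnrnpa0 (-0.69 and -0.73), Hnrnpll (-0.86 and -0.93) and Hnrnpm (-0.65 and -0.76). With TMM or DESeq2 scaling, Hnrnpm from iPSCs was within 1.5-fold. Prpf40b was lower from iPSCs (-0.74), which became -0.56 with a larger pseudocount.

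From gonads, the lower genes also included Sf3b6, the branch point protein of SF3B, with 50.4 to 98.2 CPM in GROs and 14.7 to 55.0 CPM in FGOs (log2 ratio -1.09, 23 of 24 FGOs below every GRO). Srsf7 was lower as well (-0.93), against -0.26 from iPSCs and -0.81 in vivo. Srsf9 (-0.76) and Snrpc (-0.59, or -0.54 without FGO 19) were the other lower genes from gonads. In all, 5 genes had no overlap after growth from iPSCs (Hnrnpu, Sf3a3 and Srsf10 higher, Prpf4 and Sf3b4 lower), where 8.01% of all genes had none, and 2 after growth from gonads (Srsf10 higher, Sf3b4 lower), where 3.98% had none.

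Set side by side, the growth ratio was lower in vivo than from iPSCs in 47 of 56 splicing factor genes (83.9%) and in 45.4% of all 12478 genes past the filters. With in vivo GROs numbered 1 to 16 alone it was lower in 41 genes, and in 42.0% of all genes. Ratios correlated across the 56 genes with a Pearson coefficient of 0.661 between in vivo and iPSC growth, and of 0.873 between iPSC and gonad growth. Across all genes the coefficients were 0.697 and 0.87. With in vivo GROs numbered 1 to 16, the coefficient of in vivo and iPSC growth was 0.685 for the 56 genes and 0.712 for all genes. Genes are not independent replicates, so these coefficients only describe the libraries.

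**Figure D3:**
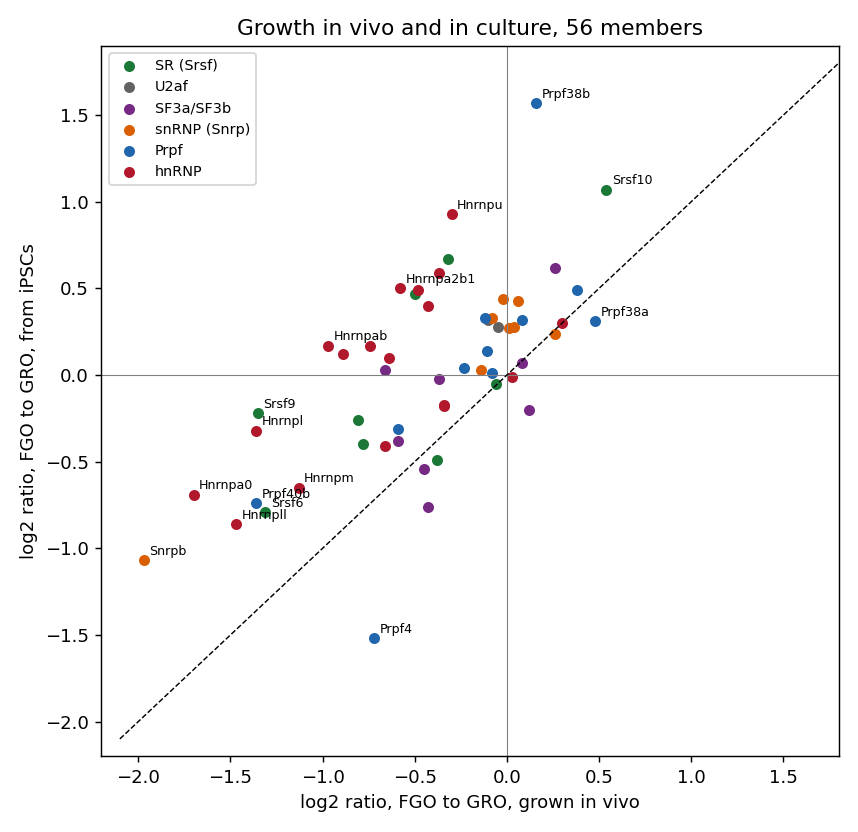
Log2 ratio of pooled CPM, FGOs over GROs, in vivo (horizontal axis) and from iPSCs (vertical axis), 1 point per splicing factor gene, coloured by family. Points above the diagonal have a lower ratio in vivo, as 47 of 56 do; Snrpb lies at -1.97 and -1.07.

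Hnrnpa2b1 (Entrez 53379, chr6:51460434-51470048), an abundant hnRNP that also binds RNA for transport, went in opposite directions. In vivo it had 171 to 352 CPM (median 230 CPM) in GROs and 107 to 200 CPM (median 166 CPM) in FGOs, a log2 ratio of -0.58. From iPSCs it had 91.5 to 202 CPM (median 164 CPM) in GROs and 198 to 273 CPM (median 234 CPM) in FGOs, a log2 ratio of 0.50. From gonads the ratio was 0.16. With GROs numbered 1 to 16 the in vivo ratio was -0.51. None of these ratios of pooled CPM was past 1.5-fold, and the difference between them was not tested. With mean logs over oocytes, the in vivo ratio with all GROs was just past 1.5-fold.

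Comparing GROs from iPSCs and from gonads addresses in vitro development of primordial germ cells (IVP@GRO), since both then passed through a similar reconstituted ovary culture. The ovaries differed in make-up. For iPSCs, sorted germ cells were joined with gonadal somatic cells depleted of germ cells, and for gonads all gonadal cells were used. These differences cannot be told apart from in vitro germ cell development. Here 0 of 56 genes were higher and 0 lower past 1.5-fold, where 6.69% of all genes were higher and 5.98% lower, and 0 had no overlap, against 0.365% of all genes. The median log2 ratio was -0.05 for splicing factor genes. The furthest genes were Prpf40b (0.54), Srsf6 (0.40), Snrpf (-0.44), whose count is uncertain because 85.4% of its windows are shared with other genes, and Hnrnph3 (-0.40). Srsf6 had 48.3 to 100 CPM from iPSCs and 48.0 to 81.8 CPM from gonads, so the groups overlapped.

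Comparing gonad-derived with in vivo GROs addresses in vitro oocyte differentiation (IVD@GRO). The paper reports that GROs from iPSCs and from gonads were larger than in vivo GROs. The part of oocyte size in this comparison, and in the growth ratios of the 3 sources, was not tested. With all in vivo GROs, 1 gene was higher and 8 were lower in culture, where 9.94% of all genes were higher and 12.4% lower. No gene was without overlap between the groups, against 0.127% of all genes. The median log2 ratio was -0.175 for splicing factor genes and -0.03 for all genes, and with in vivo GROs numbered 1 to 16 it was -0.08 and -0.00. Of the 18 hnRNP genes, 17 (94.4%) had a negative ratio, against 53.4% of all genes and 64.9% of the other spliceosome genes listed further below, and 7 were past 1.5-fold, or 3 with medians over oocytes. The share of all genes past 1.5-fold with medians was not computed. With numbers 1 to 16 alone, 1 gene was higher and 3 were lower, where 10.8% of all genes were higher and 8.14% lower. Then 15 hnRNP genes (83.3%) had a negative ratio, against 50.4% of all genes, and the hnRNP median went from -0.49 to -0.21.

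Hnrnph1 had 62.1 to 116 CPM (median 83.1 CPM) in gonad-derived GROs and 110 to 177 CPM (median 144 CPM) in in vivo GROs, with 22 of 24 gonad-derived GROs below every in vivo GRO. The log2 ratio was -0.72 with all in vivo GROs, -0.78 with numbers 1 to 16 and -0.58, just within 1.5-fold, with numbers 17 to 24. Hnrnpl had a ratio of -1.03 with all and -0.22 with numbers 1 to 16, Hnrnpll -0.82 and -0.19, Hnrnpa3 -0.75 and -0.31, Hnrnpa0 -0.69 and 0.00, and the SR gene Srsf1 -0.68 and -0.45. The other lower genes, Hnrnpr and Hnrnpul1, both had -0.61 with all, and -0.63 and -0.71 with numbers 1 to 16. They were within 1.5-fold with numbers 17 to 24 (-0.56 and -0.38) and with a pseudocount of 2 (-0.57 and -0.38). Hnrnpl, Hnrnpll, Hnrnpa3, Hnrnpa0 and Srsf1 were thus past 1.5-fold only with the in vivo GROs numbered 17 to 24 included. Snrpc, a protein of the U1 snRNP, was the higher gene, with 28.0 to 60.1 CPM in gonad-derived and 18.8 to 35.2 CPM in in vivo GROs (log2 ratio 0.61, and 0.67 with numbers 1 to 16), and was within 1.5-fold with medians over oocytes (0.51) and a pseudocount of 2 (0.58).

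**Figure D4:**
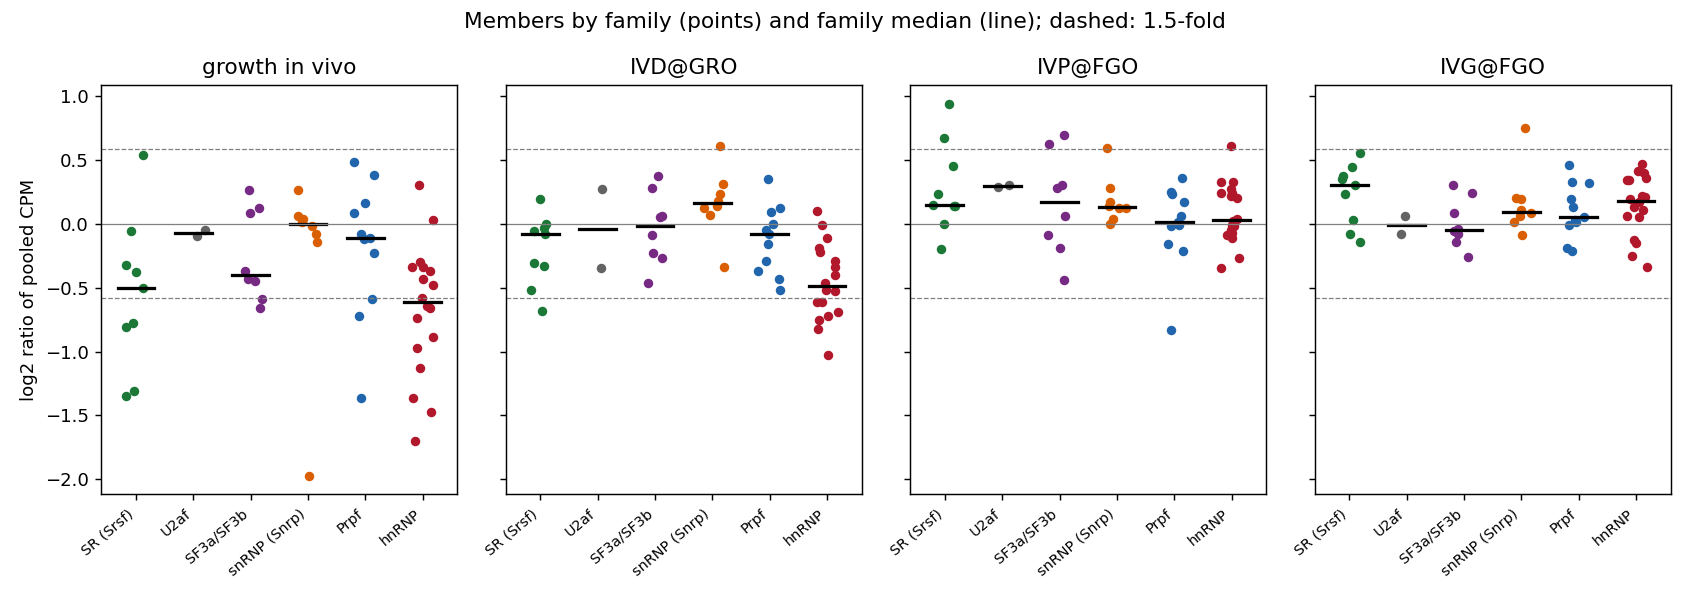
Log2 ratio of pooled CPM for each gene (points) by family in 4 comparisons, with the 1.5-fold bounds. Of 18 hnRNP genes, 16 are below 0 for growth in vivo (56.2% of all genes are) and 17 for gonad-derived against in vivo GROs (53.4%), 2 comparisons that share the in vivo GROs; with GROs 1 to 16 the counts are 14 and 15.

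Among FGOs, iPSC-derived against gonad-derived oocytes (IVP@FGO) had 6 genes higher and 1 lower past 1.5-fold, where 6.10% of all genes were higher and 13.0% lower. The culture of isolated follicles was shorter for gonad-derived than for iPSC-derived oocytes. No splicing factor gene was free of overlap, against 0.464% of all genes. The median log2 ratio was 0.141 for splicing factor genes and -0.08 for all genes. Srsf7 had 44.5 to 130 CPM (median 57.6 CPM) in iPSC-derived and 21.6 to 84.1 CPM (median 27.8 CPM) in gonad-derived FGOs, a log2 ratio of 0.94. Sf3b4 (0.69), Srsf6 (0.67), Sf3b6 (0.62), Hnrnpul1 (0.61) and Snrpc (0.59) were higher too. Hnrnpul1 was a low gene, with 2.05 and 1.18 pooled CPM, and fell within 1.5-fold with a pseudocount of 2 (0.35), with medians (0.55) or mean logs (0.58) over oocytes and with the oocytes that the study used (0.50). All of these but Hnrnpul1 were also lower after growth from gonads, a comparison that shares the gonad-derived FGOs. Prpf4 was the lower gene, with 2.58 to 12.2 CPM in iPSC-derived and 6.76 to 29.2 CPM in gonad-derived FGOs (-0.83). Snrpc and Srsf6 were near the bound and fell within it with a larger pseudocount (0.57) and with the oocytes that the study used (0.56). Without gonad-derived FGO 19, Snrpc was also within it (0.54).

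Gonad-derived against 6 dpp FGOs (IVD@FGO) had 0 genes higher and 0 lower, where 5.21% of all genes were higher and 3.39% lower, and 0 genes without overlap, against 0.00736% of all genes. The furthest were Prpf31 (0.48), a U4/U6 snRNP protein, Sf3b2 (0.30), Srsf1 (-0.39) and Srsf6 (-0.35).

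For 6 dpp against in vivo FGOs, which addresses in vitro growth (IVG@FGO), 1 gene was higher and 0 lower, where 5.21% of all genes were higher and 10.8% lower. With the oocytes that the study used, 4 genes were higher (Snrpb, Srsf5, Hnrnpa0 and Srsf4), where 8.16% of all genes were higher and 8.02% lower. Without the oocytes that stood apart, 2 were higher (Snrpb and Srsf5), where 7.53% of all genes were higher and 8.40% lower. With all oocytes, no gene was without overlap, against 0.302% of all genes. The higher gene was Snrpb, with 39.7 to 104 CPM (median 54.3 CPM) in 6 dpp FGOs and 8.50 to 78.9 CPM (median 36.5 CPM) in in vivo FGOs, a log2 ratio of 0.75, and 2 of 24 6 dpp FGOs were above every in vivo FGO. As given above, 8 of the in vivo FGOs lay at 8.50 to 17.7 CPM, below every 6 dpp FGO, while the other 12, at 32.4 to 78.9 CPM, overlapped with them. With medians over oocytes the ratio was 0.57, within 1.5-fold, and with the oocytes that the study used it was 1.13. Of 18 hnRNP genes, 14 (77.8%) had a positive ratio, as did 71.4% of the 56 splicing factor genes, 75.7% of the other spliceosome genes and 45.8% of all genes, with Hnrnpu (0.47) and Hnrnpa2b1 (0.41) among the furthest and Hnrnpa3 (-0.34) the furthest below. Sf3b4 had a ratio of -0.26.

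Summed over the 18 genes, hnRNP reads made up a median of 0.111% of an oocyte's reads in GROs from iPSCs (0.0922 to 0.124%) and from gonads (0.0967 to 0.121%). In in vivo GROs the median was 0.134% (0.112 to 0.162%), with 0.129% (0.112 to 0.141%) in numbers 1 to 16 and 0.152% (0.128 to 0.162%) in numbers 17 to 24. Among FGOs it was 0.133% from iPSCs (0.116 to 0.155%) and 0.119% from gonads (0.107 to 0.141% in 23 oocytes and 0.172% in number 19). It was 0.133% from 6 dpp follicles (0.11 to 0.178%) and 0.11% in vivo (0.0994 to 0.128%). The highest share, 0.178%, was that of 6 dpp FGO 3, which had 346 CPM of Hnrnpa2b1. The median of numbers 1 to 16 was thus above every culture-derived GRO, while the ranges overlapped. In vivo the FGO median was below the GRO median, and from iPSCs it was above.

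**Figure D5:**
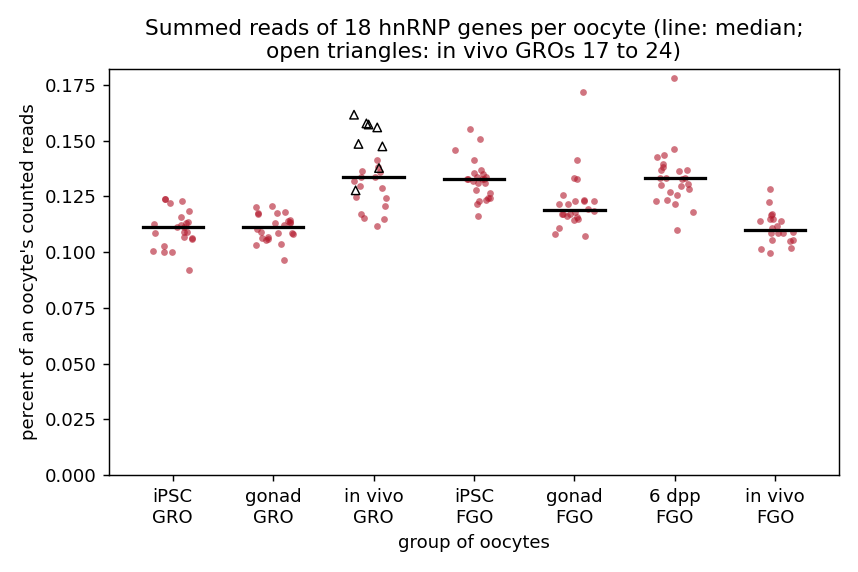
Share of an oocyte's counted reads (percent, vertical axis) that fell on the 18 hnRNP genes, 1 point per oocyte, with the group median as a line. Open triangles are the in vivo GROs numbered 17 to 24. Medians are 0.111% in both kinds of culture-derived GROs and 0.134% in in vivo GROs.

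Of the 56 genes, 26 (46.4%) stayed within 1.5-fold in all 8 comparisons of pooled CPM, as did 28.8% of the 12317 genes past every filter. These included Snrpa1 (log2 ratios from -0.10 to 0.31) and Snrpb2 (-0.07 to 0.28) of the U2 snRNP, the Sm genes Snrpe (-0.30 to 0.44) and Snrpg (-0.13 to 0.27), Sf3b3 (-0.44 to 0.28), Hnrnpc (-0.12 to 0.30) and Prpf18, a second-step factor (-0.18 to 0.49). Hnrnpk, a poly(C)-binding hnRNP, had 269 to 343 pooled CPM over the 7 groups, and Srsf3, a small SR protein gene, 63.4 to 72.5 CPM. Prpf8, the scaffold at the heart of the catalytic centre, had 205 to 251 CPM, and Prpf19, a ubiquitin ligase of the spliceosome, 10.2 to 12.6 CPM. Both U2AF genes stayed low and within 1.5-fold in all 8 comparisons, with 8.26 to 10.9 CPM for U2af1, which binds the 3' splice site AG, and 6.44 to 9.76 CPM for U2af2, which binds the polypyrimidine tract. Snrpd1 had 133 to 180 CPM. Of these genes, Hnrnpk, Srsf3, Snrpg, U2af1 and U2af2 share 13 to 44.4% of their windows with other genes. Among genes named further above, Hnrnpa1, Hnrnpa3, Hnrnpab, Hnrnpm, Srsf5 and Srsf10 share 10.4 to 44.8%.

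Other spliceosome and splicing genes were read from a list of 87, of which 74 were in the table. For growth in vivo, 3 were higher and 18 lower, with a median log2 ratio of -0.187. Their shares, 4.05% and 24.3%, compare with 18.7% and 26.6% of all genes. With in vivo GROs numbered 1 to 16, 4 were higher and 14 lower, with a median of -0.09. The furthest lower were Lsm4 (-1.49), Casc3 (-1.47, and -0.83 with numbers 1 to 16) and Lsm8 (-1.10), where the LSM proteins form the ring on U6 snRNA, and the furthest higher were Mbnl3 (0.81), Crnkl1 (0.72) and Rbm22 (0.66). For growth from iPSCs, 19 were higher (25.7%, against 15.2% of all genes) and 12 lower (16.2%, against 27.6%), with a median of 0.287 against -0.113 for all genes. From gonads 6 were higher (8.11%, against 14.7%) and 11 lower (14.9%, against 21.0%), with a median of 0.173 against -0.05. At the GRO stage 0 passed 1.5-fold in IVP@GRO, and 0 were higher and 9 lower (12.2%, against 12.4% of all genes) in IVD@GRO, or 4 lower with in vivo GROs numbered 1 to 16.

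Promoters of the genes were read from RefSeq (GRCm38.p6), from 250 bases before to 50 bases after the start, for 50 of the 57 genes with 67 promoters. Each was searched on both strands for CCAAT (the NF-Y box), CCGGAAG (an ETS motif), CGCATGCG (an NRF1 core) and TATAAA (the TATA box). The NF-Y box occurred in 50.7% of these promoters and in 37.4% of all 32851 promoters of that length, the ETS motif in 34.3% and 8.86%, the NRF1 core in 5.97% and 1.87%, and the TATA box in 5.97% and 13.6%. The median GC content was 61% against 52.7%. The NF-Y box was present for 12 of 17 hnRNP genes and the ETS motif for 2 of them, whereas the ETS motif was present for 5 of 6 SF3 genes and 4 of 6 Snrp genes. None of the 4 motifs contains another. Hnrnpll, Prpf18, Sf3b4, Sf3b5, Snrpb, Snrpd1 and U2af2 had no promoter in the table.

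The following promoters, chosen after the values were seen, belong to Hnrnpa0, lower after growth in all 3 sources, to Hnrnpl, lower past 1.5-fold only after growth in vivo and there only with in vivo GROs 17 to 24 included, to genes higher after growth from iPSCs (Srsf10, Prpf38b and Sf3a3) and to Snrpe, an Sm ring gene with overlapping ETS motifs. Each is written from 5′ to 3′ on the gene's strand, with matches to a motif or its reverse complement in capitals. A match is a description of letters only. Hnrnpa0 lies at chr13:58128507-58128806 on the minus strand, Hnrnpl at chr7:28810640-28810939 on the plus strand, Srsf10 at chr4:135855821-135856120 on the plus strand, Prpf38b at chr3:108911680-108911979 on the minus strand, Sf3a3 at chr4:124714611-124714910 on the plus strand and Snrpe at chr1:133610231-133610530 on the minus strand.
Hnrnpa0: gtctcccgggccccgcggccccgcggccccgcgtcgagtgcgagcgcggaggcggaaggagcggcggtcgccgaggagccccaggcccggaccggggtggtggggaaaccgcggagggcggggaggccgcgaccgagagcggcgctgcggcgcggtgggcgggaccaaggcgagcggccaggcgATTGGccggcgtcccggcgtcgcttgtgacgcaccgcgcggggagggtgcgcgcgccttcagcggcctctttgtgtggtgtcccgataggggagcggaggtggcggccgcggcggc
Hnrnpl: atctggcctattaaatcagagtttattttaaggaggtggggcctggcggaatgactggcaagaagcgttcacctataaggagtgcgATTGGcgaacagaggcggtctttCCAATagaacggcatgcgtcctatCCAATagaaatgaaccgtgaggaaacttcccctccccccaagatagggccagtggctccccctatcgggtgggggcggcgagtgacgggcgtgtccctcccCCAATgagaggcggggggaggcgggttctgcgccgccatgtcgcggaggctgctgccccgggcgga
Srsf10: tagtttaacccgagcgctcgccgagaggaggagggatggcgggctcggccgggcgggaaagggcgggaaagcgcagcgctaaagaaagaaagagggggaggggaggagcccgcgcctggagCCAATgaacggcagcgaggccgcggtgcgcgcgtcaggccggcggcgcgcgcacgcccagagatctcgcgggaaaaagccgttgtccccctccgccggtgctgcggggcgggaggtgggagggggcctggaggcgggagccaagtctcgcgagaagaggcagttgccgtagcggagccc
Prpf38b: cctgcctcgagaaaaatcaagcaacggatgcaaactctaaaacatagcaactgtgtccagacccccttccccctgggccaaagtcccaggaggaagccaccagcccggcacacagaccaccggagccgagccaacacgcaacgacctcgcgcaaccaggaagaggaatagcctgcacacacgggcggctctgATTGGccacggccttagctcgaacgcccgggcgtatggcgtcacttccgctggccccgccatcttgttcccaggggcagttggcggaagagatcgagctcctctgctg
Sf3a3: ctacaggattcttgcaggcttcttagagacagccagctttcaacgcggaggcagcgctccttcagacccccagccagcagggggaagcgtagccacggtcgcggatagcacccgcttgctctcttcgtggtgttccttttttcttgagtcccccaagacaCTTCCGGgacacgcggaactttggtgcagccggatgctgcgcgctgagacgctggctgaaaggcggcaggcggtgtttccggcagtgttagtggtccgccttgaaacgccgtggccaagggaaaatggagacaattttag
Snrpe: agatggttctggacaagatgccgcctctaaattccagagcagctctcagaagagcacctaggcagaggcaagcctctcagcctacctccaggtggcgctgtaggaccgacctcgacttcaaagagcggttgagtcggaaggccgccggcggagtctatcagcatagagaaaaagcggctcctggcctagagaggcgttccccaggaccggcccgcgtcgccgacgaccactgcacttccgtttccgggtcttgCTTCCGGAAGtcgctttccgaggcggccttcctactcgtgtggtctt

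Hnrnpl holds 4 CCAAT boxes in this window, of which 1 is on the opposite strand, and Hnrnpa0, Srsf10 and Prpf38b hold 1 each. Genes with a CCAAT box are found among those higher after growth from iPSCs (Srsf10, Prpf38b) and among those lower after growth in vivo with all GROs (Hnrnpa0, Hnrnpl). Sf3a3 holds 1 ETS motif, and Snrpe holds 2 that overlap on opposite strands. Snrpe was within 1.5-fold in all 8 comparisons.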

How the data were processed

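Single-end reads had been aligned with STAR to GRCm38 (mm10) by the authors (labels and methods of the study), and uniquely mapped reads were counted on the exons of 1 randomly chosen transcript per gene. The deposited counts are raw and per oocyte, and the deposited exonic length, a value of another kind, served here only for RPKM. Whether counting used strand is not given in the sources used here, and near-identical copies are uncertain. Members and lists were chosen with earlier results of these data known. Symbols came from RefSeq GRCm38.p6.

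All oocytes of a group were pooled to CPM, with exact Poisson 95% intervals that cover counting error only. Ratios are log2((CPM + 0.5)/(CPM + 0.5)), which understates differences of genes near 1 CPM. Genes entered a comparison when 3 or more oocytes of the stage (for growth, of both groups) exceeded 1 CPM, and called means past 1.5-fold. Ratio scripts were tested on simulated counts, where recovery was required of genes over 5 CPM only, a bar set after genes near 1 CPM had been missed. Named genes were, per comparison, up to 6 per direction past 1.5-fold with at least 5 CPM in the higher group (otherwise the 2 furthest per direction), the highest and lowest gene per family and a fixed set; others were named after their values were seen. Alternatives were TMM (edgeR 4.0.16) and DESeq2 (1.42.0) size factors in R 4.3.3, medians or mean logs over oocytes, a pseudocount of 2, no filter, a fold of 2, the oocytes that the study used, leaving out oocytes that stood apart, and leaving out each oocyte in turn. Restricting to members with under 10% shared windows and splitting the in vivo GROs by number were added after seeing the data. Python 3.11.15 with pandas 2.3.3 and scipy 1.17.1 was used.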

Additional observations from a re-analysis of the deposited data

Results flagged for a closer look

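Hnrnpa2b1 was singled out because all its FGOs moved one way in vivo and the other way from iPSCs. Every in vivo FGO was below the pooled CPM of the in vivo GROs, and every iPSC-derived FGO was above the pooled CPM of the iPSC-derived GROs. The log2 ratios were -0.58 and 0.50, a difference of -1.09. The difference was not tested, and 280 combinations of gene and pair of comparisons had been looked at.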

How the results depend on the processing

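No paired analysis was possible because the results come from no test and each group is 1 sample. With a fold of 2, the genes past the bound numbered 8 for growth in vivo, 4 from iPSCs, 5 from gonads, 1 in IVD@GRO, 0 in IVP@FGO and 0 in IVG@FGO, where 23.7%, 22%, 15.8%, 6.88%, 5.93% and 4.2% of all genes were. With medians over oocytes, 1 gene was past the bound in IVP@GRO and 3 in IVD@GRO. Shares of all genes were not computed with medians, nor with single oocytes left out, so those counts have no background. With in vivo GROs 1 to 16 only, a choice made after seeing the data, IVD@GRO had 4 genes and Hnrnpa0 there went to 0.00, a change of sign. With members of few shared windows, also added later, the IVD@GRO median was -0.29. IVG@FGO had 4 genes with the oocytes that the study used and 2 without those that stood apart. Genes without overlap in all comparisons together went from 8 to 15 with the oocytes that the study used. The rise came only from growth in vivo (1 to 8 splicing factor genes). There the share of all genes without overlap rose as well, from 3.45% to 14.2%. Leaving out single oocytes gave 0 to 1 genes in IVP@GRO and 1 to 2 in IVG@FGO, where in vivo FGOs 5, 7 or 19 made the difference. The causes were not tested. Of 472 alternative values for the 41 named ratios past 1.5-fold, 437 stayed past it, and 15 of the 41 fell within it under at least 1 setting. Part of the 472 could not change, since using no filter or members of few shared windows leaves a ratio as it is. Leaving out the FGOs that stood apart cannot move growth from iPSCs or IVD@GRO. The number that stayed is therefore no measure of robustness. With DESeq2 scaling, the genes higher after growth from gonads went from 2 to 4. Low genes such as Prpf40b and Hnrnpl have few reads in each oocyte, and oocytes without a known animal limit all comparisons.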
